A study of Homo sapiens with 6 samples.

Results

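The guanylate-binding proteins GBP1 to GBP6 were examined in AGS, a line of human gastric adenocarcinoma cells, after knockdown of C1GALT1, the enzyme that extends mucin-type O-glycans by adding galactose. The members were the probes whose RefSeq accession belongs to GBP1, GBP2, GBP3, GBP4, GBP5 or GBP6. This gave 7 probes for the 6 genes, 2 for GBP3 and 1 for each other gene, among 58201 different probes on the array, of which 31100 carried a gene symbol. AGS cells grown in serum were transfected for 48 h either with a nontargeting siRNA (si-Control, 3 samples) or with si-C1GALT1-3, 1 of the study's siRNAs against C1GALT1 (3 samples). Each sample's total RNA went onto 1 one-colour Agilent array, and the arrays are called control and knockdown replicates below. Arrays with the same replicate number shared a slide, on which the si-Control array and the si-C1GALT1-3 array always took the same places, so place on the slide and treatment cannot be told apart. Only 1 targeting siRNA was profiled, so loss of C1GALT1 and any other effect of that siRNA cannot be told apart either. The sources used here do not say whether the samples came from separate cultures, so the p-values measure only the spread between these samples.

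Guanylate-binding proteins are large GTPases of the dynamin superfamily that cells make in response to interferons, above all interferon gamma. The signal runs through the JAK kinases, and IRF1 is among the factors that bind the promoters of these genes. The proteins assemble on the membranes of intracellular pathogens and on cytosolic bacteria and help to activate inflammatory caspases. GBP1, GBP2 and GBP5 carry a C-terminal CAAX box, the signal for a lipid anchor, whereas GBP3, GBP4 and GBP6 do not. The genes lie side by side on chromosome 1.

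Several interferon response elements are known from such promoters. The interferon-stimulated response element was searched as the core GAAA, any 2 bases and GAAA, and the gamma-activated site as TTCNNNGAA, on both strands and from 250 bases before to 50 bases after the RefSeq start of each gene. Of the 6 members, 4 had an entry in the promoter table used, namely GBP1, GBP3, GBP4 and GBP6. The core of the response element was found in 3 of these, GBP1, GBP3 and GBP4, and in 3.57% of all 35116 promoters. The TTCNNNGAA pattern was found in 1, GBP3, and in 7.66% of all promoters. A response element or gamma-activated site with other letters or spacing would be missed by this search, so no match does not mean no site. The stretches around the response element are shown for GBP1, GBP3 and GBP4. They were chosen with the array readouts known, and any bearing on those readouts was not tested. The stretches are from RefSeq (GRCh38.p14, minus strand), 5′ to 3′, with the match in capitals. The match here reads TTTC, any 2 bases and TTTC, the core on the opposite strand.
GBP1 (chr1:89065316-89065345): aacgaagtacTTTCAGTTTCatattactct
GBP3 (chr1:89022845-89022874): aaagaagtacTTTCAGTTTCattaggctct
GBP4 (chr1:89198927-89198956): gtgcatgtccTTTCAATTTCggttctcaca
GBP1 and GBP3 were identical at 25 of these 30 bases, and GBP1 and GBP4 at 16 of 30. The match began 127 bases before the start of GBP1 and 4 bases before that of GBP4, and at base 3 after the start of GBP3. The TTCNNNGAA match of GBP3 lay upstream of its response element and did not overlap it. A match of letters is a description of the sequence and not evidence of binding.

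The signals are the scanner software's processed intensities, taken to log2 and quantile normalized over the 6 arrays. The share of gene spots well above background ran from 66.2% to 72.7% over the arrays, and no gene spot was saturated. The array of si-Control replicate 2 held a patch of low signal, and its spots in lines 113 to 288 and columns 59 to 115 were set to missing on that array. None of the 7 member probes lies in that region, although the GBP5 spot is 4 columns from its edge. C1GALT1 itself (A_23_P252145) had a normalized log2 signal of 12.22, 13.03 and 12.62 in control replicates 1, 2 and 3, and of 11.76, 11.98 and 11.13 in knockdown replicates 1, 2 and 3. Its log2 difference was -1.0 (standard error 0.31, adjusted p = 0.265 in limma) with no overlap between the groups, and it missed the threshold of p under 0.01. Of the 58193 probes tested, 1538 (2.64%) passed p under 0.01 with 2-fold or more, which is the threshold used below, and 62.5% of those were higher in si-C1GALT1-3 cells. The share higher was 72.6% with no normalization between arrays and 40.2% with the region kept. At a Benjamini-Hochberg adjusted p under 0.05, 49 probes passed.

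Among the guanylate-binding proteins, GBP1 rose strongly and was the only member whose probe passed the threshold. That is 1 of 7 member probes, upward, against 1.65% of all probes tested that passed upward. No member probe passed downward, against 0.992% of all probes. None of the 7 had an adjusted p under 0.05, against 0.0842% of all probes, and 1, that of GBP1, had an unadjusted p under 0.05, against 13.8% of all probes. The median log2 fold change over the 7 probes was 0.14, against -0.0047 over all probes. In AGS cells the other 5 genes were already well above background in every si-Control array, and GBP1 was not.

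GBP1 (A_23_P62890), which coats cytosolic bacteria and recruits other guanylate-binding proteins, had processed signals of 28.3, 62.7 and 13.3 in control replicates 1, 2 and 3, and of 505, 390 and 194 in knockdown replicates 1, 2 and 3. It was near background in control cells, where 1 of the 3 arrays, replicate 2, was well above it, and was well above background on all 3 si-C1GALT1-3 arrays. Its normalized log2 signal averaged 4.87 ± 0.92 (SD, n = 3) over the control replicates and 8.35 ± 0.40 (SD, n = 3) over the knockdown replicates, and the lowest si-C1GALT1-3 array, 7.94, was above the highest si-Control array, 5.93. Groups that did not overlap in this direction were found for 8.37% of all probes. The log2 fold change was 3.48 (standard error 0.50, 95% interval 2.24 to 4.72), or 11.2-fold, with an adjusted p of 0.0940 in limma. Since 2 of the 3 control values were background readings, this is a fitted value and not a measured fold.

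The size of the GBP1 rise varied with the slide and the setting. On the slide where both arrays measured it above background, that of replicate 2, the rise was 2.44 on the log2 scale. It was 4.47 on slide 1 and 3.53 on slide 3, where the si-Control value was not well above background. The si-Control array of replicate 2 is the one with the patch of low signal, and the GBP1 spot lies outside the masked region. Without si-Control replicate 2 the fitted rise was 16.4-fold, and with another background correction that adds an offset of 50 it was 3.69-fold. GBP1 passed p under 0.01 and 2-fold under all 17 alternatives run. Its adjusted p ranged from 0.0180 to 0.342 over these, and was under 0.05 in 2 of them, with dim probes left out and with that background correction.

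**Figure D1:**
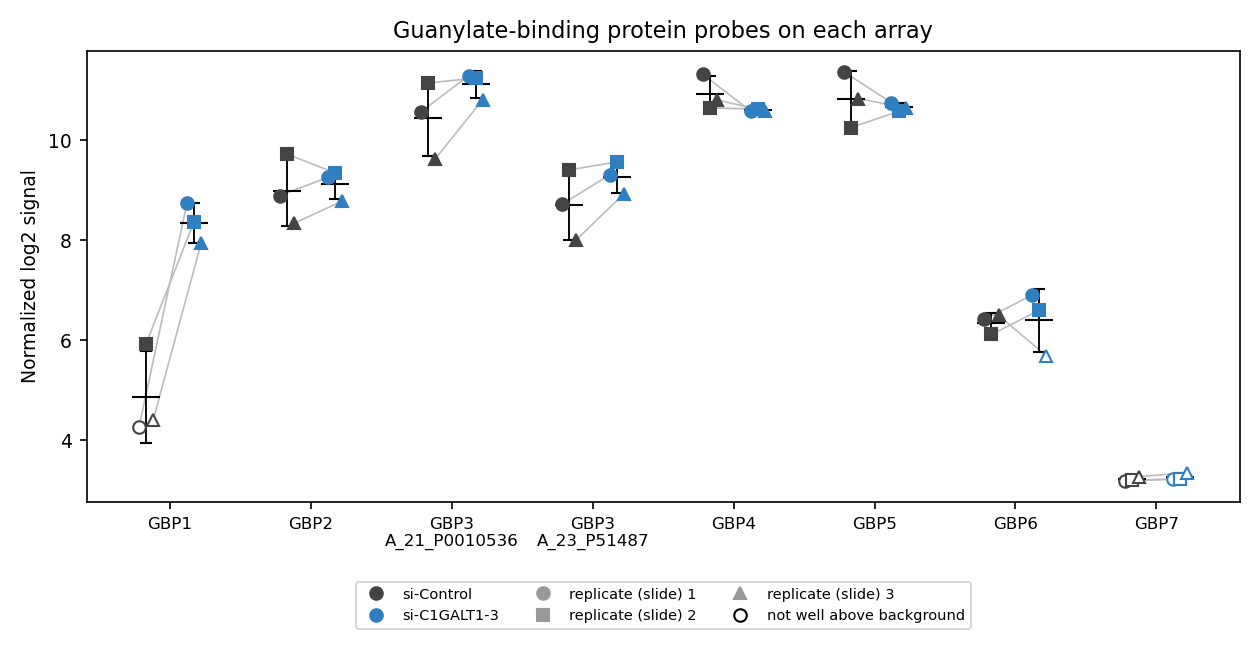
Normalized log2 signal of each guanylate-binding protein probe on the 6 arrays, with si-Control in grey and si-C1GALT1-3 in blue, lines joining arrays of the same slide, and black bars for the mean ± SD of the 3 arrays. GBP1 moves from 4.87 to 8.35 with no overlap, the probes of GBP2, GBP3, GBP5 and GBP6 overlap between the groups, and GBP7 is open, that is not well above background, on every array.

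The other 2 members with a CAAX box did not pass the threshold. GBP2 (A_23_P85693), which is recruited to pathogen membranes and restrains the protease furin, had normalized log2 signals of 8.90, 9.72 and 8.34 in control replicates 1, 2 and 3, and of 9.26, 9.35 and 8.78 in the knockdown replicates. All 3 si-C1GALT1-3 values fell within the range of the si-Control values. The log2 fold change was 0.14 (standard error 0.38, 95% interval -0.81 to 1.1), which does not exclude a 2-fold rise. GBP5 (A_23_P74290), known for promoting assembly of the NLRP3 inflammasome, had normalized log2 signals of 11.37, 10.25 and 10.83 in control replicates 1, 2 and 3, and of 10.75, 10.58 and 10.65 in the knockdown replicates. The si-C1GALT1-3 values again lay inside the si-Control range, and the log2 fold change was -0.16 (standard error 0.30, 95% interval -0.89 to 0.57). Without si-Control replicate 2, whose GBP5 spot is beside the low region, the value was -0.44, and without si-Control replicate 1 it was 0.12.

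GBP3, the gene next to GBP1 and read by 2 probes, had values above 0 for both probes and passed the threshold for neither. Its brighter probe (A_21_P0010536) had normalized log2 signals of 10.57, 11.15 and 9.62 in control replicates 1, 2 and 3, and of 11.29, 11.24 and 10.81 in the knockdown replicates. The dimmer probe (A_23_P51487) had 8.72, 9.41 and 8.0 in the control replicates and 9.31, 9.57 and 8.93 in the knockdown replicates. The groups overlapped for both probes, and si-Control replicate 2 was the highest control array for both. The log2 fold changes were 0.67 (standard error 0.41, 95% interval -0.34 to 1.68) and 0.56 (standard error 0.39, 95% interval -0.41 to 1.52), with adjusted p of 0.535 and 0.593 in limma. They moved to 0.26 and 0.20 without si-Control replicate 3 and to 1.02 and 0.91 without si-Control replicate 2, and passed in neither case. Within slides 1, 2 and 3 the differences were 0.72, 0.10 and 1.19 for the brighter probe and 0.59, 0.16 and 0.92 for the dimmer, so both were higher on all 3 slides. The log2 processed signal of the brighter probe minus that of the dimmer stayed between 1.66 and 1.98 on the 6 arrays, so the 2 probes gave nearly the same pattern.

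GBP4 and GBP6, which have no CAAX box, did not pass either. GBP4 (A_24_P45446) had normalized log2 signals of 11.32, 10.65 and 10.81 in control replicates 1, 2 and 3, and of 10.58, 10.62 and 10.59 in the knockdown replicates. Every si-C1GALT1-3 array was below every si-Control array, which held for 7.85% of all probes, although the slide 2 difference was -0.023 on the log2 scale. The log2 fold change was -0.33 (standard error 0.20, 95% interval -0.83 to 0.18, adjusted p = 0.548 in limma), an interval within 2-fold either way, and the value ran from -0.47 without si-Control replicate 2 to -0.13 without si-Control replicate 1. GBP6 (A_33_P3217437) was dim, with normalized log2 signals of 6.42, 6.12 and 6.50 in control replicates 1, 2 and 3 and of 6.91, 6.60 and 5.69 in the knockdown replicates, the last of which was not well above background. Its log2 fold change was 0.057 (standard error 0.34, 95% interval -0.79 to 0.90), and 5 alternatives turned its sign.

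GBP7 and the pseudogene GBP1P1, which belong to the same cluster but not to the 6 members, were not well above background on any of the 6 arrays, so no fold is given for them. The chromosomal order of the cluster in RefSeq is GBP3, GBP1, GBP2, GBP7, GBP4, GBP5 and GBP6. The log2 fold changes of the members in this order were 0.67, 3.48, 0.14, -0.33, -0.16 and 0.057, with GBP7 between GBP2 and GBP4. By the threshold used, GBP1 was the only gene of the cluster that rose. Of the flanking protein-coding genes, GTF2B, a general transcription factor, had 0.33, KYAT3 had -0.63, RBMXL1 had -0.037, LRRC8B, a subunit of volume-regulated anion channels, had -0.86 and LRRC8C had -0.25, and none passed the threshold.

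**Figure D2:**
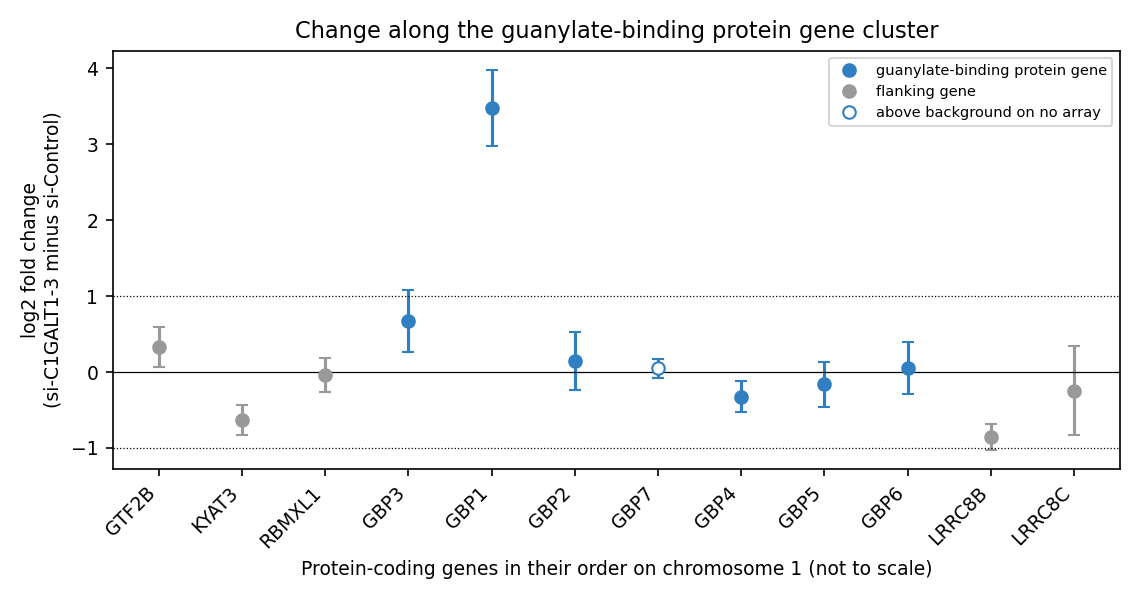
Log2 fold change (si-C1GALT1-3 minus si-Control, vertical axis) with its standard error for the genes of the cluster in blue and their flanking genes in grey, in chromosomal order and not to scale, each from its brightest probe by mean signal. GBP1, at 3.48, stands apart from all its neighbours, whose values lie between the dotted lines that mark a 2-fold change. GBP7 is open, that is above background on no array.

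To set GBP1 beside the other members, its processed signal was divided by theirs within each array, which needs no scaling between arrays. Only the change of such a ratio between groups is read, since levels of different probes cannot be compared, and the control values of replicates 1 and 3 rest on GBP1 readings that were not well above background. On slide 2, GBP1 was above background on both arrays, although the si-Control array of that slide held the patch of low signal. There the ratio to GBP2 rose by 2.71 on the log2 scale and the ratios to the GBP3 probes by 2.23 and 2.19. The ratios to GBP4, GBP5 and GBP6 rose by 2.34, 2.01 and 1.98. The log2 ratio of GBP1 to GBP2 was -4.43, -3.68 and -4.10 in control replicates 1, 2 and 3, and -0.51, -0.98 and -0.87 in the knockdown replicates. The groups did not overlap, and their means differed by 3.28 on the log2 scale. The ratio of GBP1 to the brighter GBP3 probe was -6.05, -5.08 and -5.44 in the control replicates and -2.55, -2.85 and -2.95 in the knockdown replicates, a difference of 2.74. Over all 6 ratios the difference was between 2.74 and 3.75, and the groups were apart for each. All 6 ratios share the same GBP1 signal, so they are not 6 separate observations. The two-sided exact permutation test of 3 arrays against 3 cannot give less than p = 0.1, the value it gave for every ratio before and after adjustment over the 6, so it could pass no threshold. The ratios are a description, since GBP1 was set against the others with its rise known. The probes' sequences were not used here, so hybridization of a probe to RNA of another member was not tested.

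**Figure D3:**
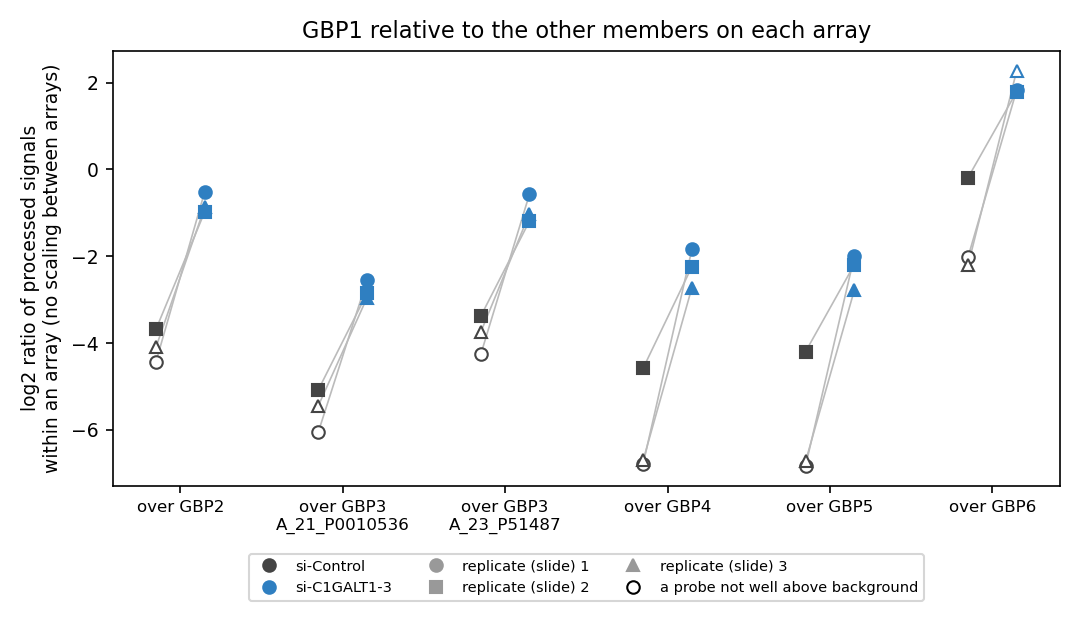
Log2 ratio of the GBP1 processed signal to that of each other member probe (horizontal axis) within each array, with lines joining arrays of a slide and open symbols where GBP1 or the other probe was not well above background. Every si-C1GALT1-3 array (blue) lies above every si-Control array (grey) for all 6 ratios, by 2.74 to 3.75 on average.

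The genes that signal to the guanylate-binding proteins were read next, each from its brightest probe by mean signal. Of 15 genes of interferon signalling, 1 passed the threshold upward and none downward, against 1.65% and 0.992% of all probes, and 7 had an unadjusted p under 0.05, against 13.8% of all probes. The median log2 fold change was 0.38, with 14 of the 15 above 0, and the median over all probes with a symbol was 0.026. IFNGR1, a subunit of the interferon gamma receptor, had normalized log2 signals of 11.87, 11.97 and 12.01 in control replicates 1, 2 and 3 and 13.07, 12.81 and 13.28 in the knockdown replicates. It rose by 1.11 (standard error 0.16, adjusted p = 0.0979 in limma), with the groups well apart. IRF1, a transcription factor that acts on GBP1 and was picked out after its values were seen, differed by 0.87 on the log2 scale (standard error 0.23), under 2-fold, and its groups did not overlap. JAK1 had the lowest value of the list, -0.59 (standard error 0.14). The count of genes passing was 0 without si-C1GALT1-3 replicate 3 and 3 without si-Control replicate 2.

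Other genes that interferon gamma is known to induce were mixed. Of 18 such targets 1 passed upward, XAF1, and 1 downward, CIITA, against 1.65% and 0.992% of all probes. Their median log2 fold change was 0.36, and 7 had an unadjusted p under 0.05 in limma, against 13.8% of all probes. XAF1, a pro-apoptotic antagonist of XIAP, rose by 1.88 (standard error 0.23) from its brighter probe. Both of its 2 probes passed, with a median log2 fold change of 2.41. CIITA, the master activator of MHC class II genes, had -1.06 (standard error 0.15) from its brighter probe, and 1 of its 2 probes passed. The CIITA spot lies in the low region of si-Control replicate 2, so its value rests on 2 si-Control arrays. NLRC5, an activator of MHC class I genes, was counted as not passing from its brighter probe (0.54, standard error 0.12), while its dimmer probe, not well above background in any control replicate, passed upward. The immunoproteasome genes PSMB8, PSMB9 and PSMB10 and the chemokine genes CXCL9, CXCL10 and CXCL11 belong to this list and none of them passed.

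Among relatives and partners, MX2 and UBE2L6 passed, both upward, to be read against the 1.65% of all probes that passed upward. Of 14 other GTPases of the dynamin superfamily, MX2, an interferon-induced antiviral GTPase, passed upward by 1.57 on the log2 scale (standard error 0.19), and none passed downward. ATL1, an endoplasmic reticulum atlastin, had the largest fitted rise of that list, 1.69 (standard error 0.48), without passing, and DNM3 had the lowest value, -0.78 (standard error 0.98). The median of the list was 0.044. ATL2, another atlastin, was counted as not passing from the brightest of its 3 probes (0.10), while its dimmest (A_23_P415015) passed downward with -1.31 (standard error 0.24). None of the 6 enzymes that attach or process lipid anchors at CAAX boxes passed. Their values ran from -0.34 for FNTA, a farnesyltransferase subunit, to 0.54 for the protease ZMPSTE24, with a median of 0.16. Of these 6, 1 had an unadjusted p under 0.05 in limma, against 13.8% of all probes. Of 15 partners in cell-autonomous defence, 1 passed upward and none downward, with a median of 0.17. This was UBE2L6, the conjugating enzyme for ISG15, which rose by 1.62 (standard error 0.30). PIM1, the kinase known to phosphorylate GBP1, had the lowest value of that list, -1.27 (standard error 0.35), and did not pass.

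**Figure D4:**
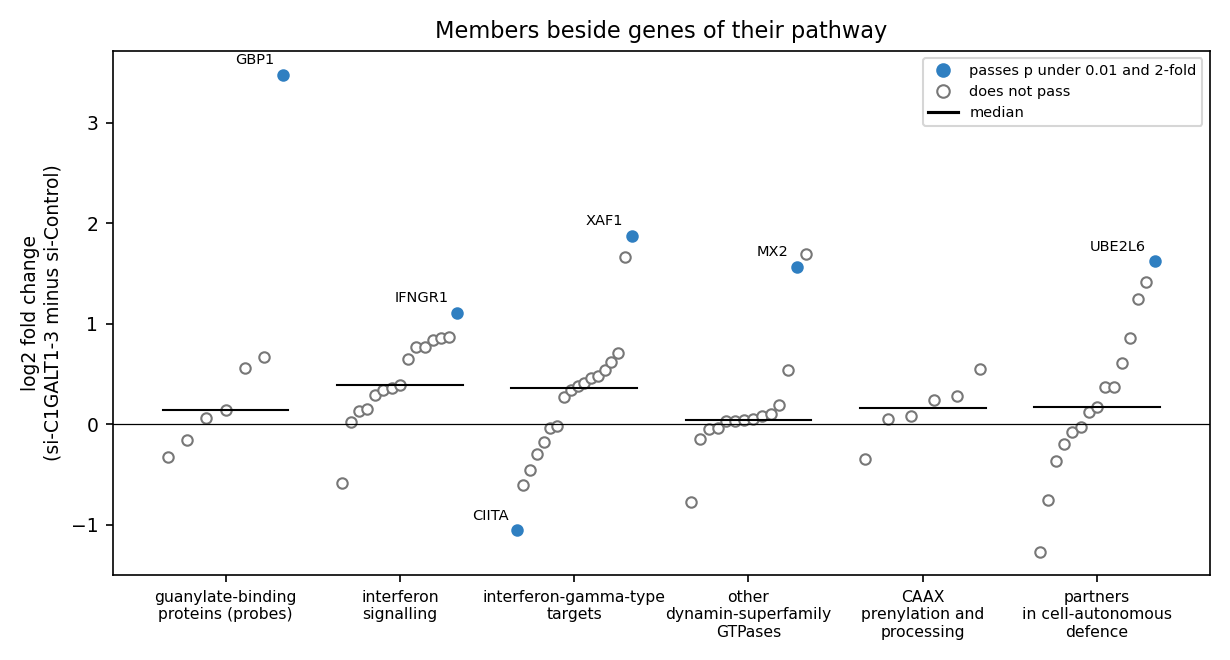
Log2 fold change (si-C1GALT1-3 minus si-Control) of the 7 member probes and of the genes of each pathway list, sorted within a list, with filled symbols for p under 0.01 and at least 2-fold and black lines for the medians. GBP1, at 3.48, lies above every gene of the 5 lists, in which XAF1, with 1.88, is the highest when each gene is read from its brightest probe.

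The profile of GBP1 over the 6 arrays was compared with those of 19691 probes that carried a symbol, had a value on all 6 arrays and, in either group, were well above background on each of the 3 arrays. Likeness was the root-mean-square difference of the log2 values after each profile was centred on its mean. The GBP1 values of control replicates 1 and 3 were not well above background, so likeness over the control arrays rests partly on background readings. The 5 genes nearest to GBP1 were PRF1, the pore-forming perforin (0.48), OAS2, an interferon-induced oligoadenylate synthetase (0.53), TMT1A, a thiol methyltransferase (0.54), PLEKHA1, a phosphoinositide-binding adaptor (0.55), and IFI35, an interferon-induced protein (0.55), against a median of 1.83 over all profiles. Their log2 fold changes ran from 2.60 to 3.05, which the choice of profiles like that of GBP1 fixes and which is given as a description, and OAS2 was well above background in 2 of the 3 control replicates. The nearest of the other member probes was the brighter GBP3 probe, at 1.45, and the farthest was GBP4, at 2.04. Of these 5 genes 4 had an entry in the promoter table. Of these 4, 1, IFI35, held the TTCNNNGAA pattern, against 7.66% of all promoters. None held the core of the response element, against 3.57% of all promoters. A response element with other letters or spacing would be missed, so no match does not mean no element.

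Markers of cell type were read to check the label and to look for other cells. All 7 epithelial markers, among them EPCAM, KRT8, KRT18 and KRT19, stood well above background on all 6 arrays. Of these 7, ELF3, an epithelial transcription factor, passed upward (1.04, standard error 0.18), against 1.65% of all probes. The ELF3 spot lies in the low region of si-Control replicate 2, so its value rests on 2 si-Control arrays. CLDN7, a tight junction claudin, had -0.65 (standard error 0.18) without passing. Of 8 leukocyte markers, each read from its brightest probe, 0 passed the threshold, none had an unadjusted p under 0.05 in limma, and 5 were above background throughout. Nearly all of their summed signal came from the PTPRC probe. The log2 of that sum ran from 13.71 to 14.39 over the control replicates and from 13.64 to 13.79 over the knockdown replicates. The array has 5 probes for PTPRC, the pan-leukocyte phosphatase CD45. The 2 brightest had log2 fold changes of -0.33 and -0.38, and 2 dimmer ones passed upward, A_33_P3364821 with 1.90 (standard error 0.39) and A_33_P3364811, which was not well above background in any control replicate. Of the 4 endothelial and 4 fibroblast markers 0 passed the threshold. An unadjusted p under 0.05 in limma was found for 1 and 2 of them, against 13.8% of all probes. For VWF and PDGFRB these were falls, and for COL3A1, a fibrillar collagen, a difference of 1.17. The VWF and PDGFRB spots also lie in the low region of si-Control replicate 2, so their values rest on 2 si-Control arrays. The median log2 fold changes of the leukocyte, endothelial and fibroblast lists were -0.29, -0.44 and -0.37. The part of other cells in the GBP1 result was not tested.

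**Figure D5:**
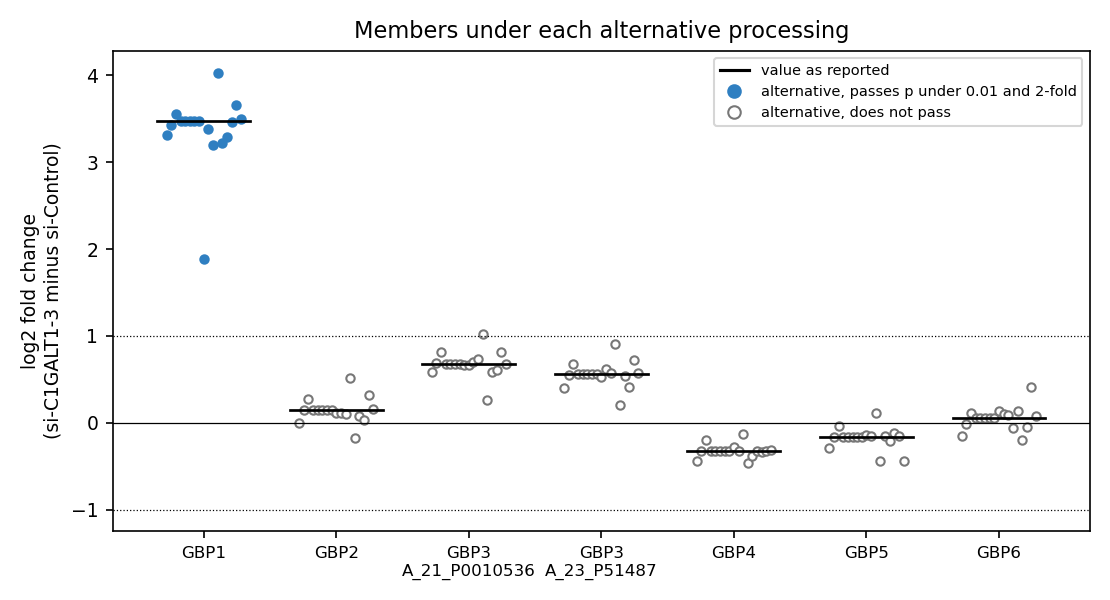
Log2 fold change (si-C1GALT1-3 minus si-Control) of each member probe as reported (black line) and under 17 alternatives of processing or with an array left out (circles, filled where p was under 0.01 and the change at least 2-fold). GBP1 is filled under every alternative, from 1.88 to 4.03, and no circle of the other 6 probes is filled, with values from -0.47 to 1.02.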

How the data were processed

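The authors deposited the output of Agilent Feature Extraction version 10.5.1.1 for each of 6 arrays, in which values are intensity per spot, background-corrected by that software and not normalized between arrays. The deposited series table gives each spot's intensity after background subtraction. From the processed intensity, log2 values were taken, control spots were left out, 100 to 424 gene spots per array marked as outliers were set to missing, and the low region of si-Control replicate 2 (9712 gene spots, 15.9%) was masked on that array. Values were quantile normalized, spots of a probe averaged, and groups compared with limma version 3.58.1 (lmFit, eBayes) in R version 4.3.3, with no filter on dim probes and Benjamini-Hochberg adjustment over all 58193 probes tested. The number of arrays limits the precision. Accessions were matched to symbols through RefSeq (GRCh38.p14), and the files name another build.

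Same-numbered arrays share a slide by the scanner barcodes, and the correlations of their deviations from the group means were 0.198, 0.215 and 0.329 for replicates 1, 2 and 3, so they were taken as pairs in an alternative fit. The fit was tested on simulated arrays with independent noise, which did not carry the likeness between arrays that share a slide. Named genes are all members, C1GALT1, GBP7, the genes of each pathway list that passed and its largest rise and fall, and the 5 profiles nearest to GBP1. Flanking genes, GBP1P1, IRF1 and other genes named without values were added after values were seen. The members, the lists and the bounds of the low region were chosen with earlier results of these data known. Alternatives were the masked region kept or widened, 2 other scalings, no dim probes, the block, another prior, the methods' t-test, marked spots kept, normexp, the series table floored at 10, the median over a gene's probes, and each array left out. Normexp was run on the median spot signal with an offset of 50.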

Additional observations from a re-analysis of the deposited data

How the results depend on the processing

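GBP1 passed p under 0.01 and 2-fold under all 17 alternatives, and the other 6 member probes passed under none, so the count of member probes was 1 throughout. With each array left out, GBP1 had log2 fold changes from 3.20 to 4.03. GBP2 turned to -0.0042 and GBP6 to -0.15 with the low region kept, and GBP6 to -0.018 with 75th percentile scaling. With each array left out GBP2 ranged from -0.18 to 0.52, the GBP3 probes from 0.26 to 1.02 and from 0.20 to 0.91, GBP4 from -0.47 to -0.13, GBP5 from -0.44 to 0.12 and GBP6 from -0.20 to 0.41. With the replicate block GBP1 kept 3.48 (adjusted p = 0.181 in limma), and the block changed no call of a member. C1GALT1 passed only with dim probes left out, at -1.0. The number of probes past the threshold was 1538, against 896 with the methods' t-test (2 at an adjusted p under 0.05) and 915 with normexp. At an adjusted p under 0.05 it was 49, against 539 with dim probes left out, 429 with normexp, 74 with the series table, 55 with the masked region widened (chosen after the data were seen), 31 with 75th percentile scaling, and 0 with the region kept, no normalization, the block, the robust prior, marked spots kept or any array left out, where 3747 to 10073 probes had an unadjusted p under 0.05. Interferon-gamma-type targets had 2 genes past the threshold, 1 with the region kept or with the block and 3 with 75th percentile scaling or dim probes left out. The GTPase list had 2 with 75th percentile scaling, no normalization, dim probes left out or the block. The defence list had 2 with the region kept, dim probes left out or the block, and 3 with 75th percentile scaling. With each array left out the counts were 0 to 3 for interferon signalling (0 without si-C1GALT1-3 replicate 3, 3 without si-Control replicate 2), 2 to 3 for the interferon-gamma-type targets (3 without si-Control replicate 2 or 3), 1 to 2 for the GTPases (2 without si-Control replicate 3) and 1 to 2 for the defence list (2 without si-Control replicate 2 or 3). The causes of these shifts were not tested. Only 4 of the 6 arrays measured GBP1 above background, so the size of its rise is uncertain.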
